A study of Mus musculus with 7 samples.

Results

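Txnip, 4 further alpha-arrestin genes (Arrdc1, Arrdc2, Arrdc3 and Arrdc4) and the Mondo factor genes Mlxip and Mlxipl were followed across 7 RNA-sequencing libraries of mouse embryonic fibroblasts (MEFs). These 7 genes were taken by symbol from the 29955 gene rows of the deposited table, and all 7 had a row. The set was drawn up with earlier results of the same libraries known. Txnip and Arrdc4 were chosen by their low levels in the Mdm2-mutant libraries, so their levels and differences between genotypes are given as a description and not as a test. Arrdc5, the remaining alpha-arrestin, and Mlx, the partner of the Mondo factors, are given beside them.

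The p53Mdm2 ko group (2 libraries) lacked p53 and Mdm2, the p53ko Mdm2 C462A ki group (2 libraries) lacked p53 and carried a knocked-in C462A substitution in Mdm2, and the p53 ko group (3 libraries) lacked p53 only. All cells came from the C57BL/6 strain and were grown in DMEM with 10% fetal calf serum, so the loss of p53 was shared by every group, and no library had intact p53. Mdm2 encodes the main ubiquitin ligase of p53, and the substitution falls in the RING domain that ligase activity needs. The labels give neither the knockout alleles, the age of the embryos, the glucose content of the medium nor the origin of the replicates (embryo or culture), so p-values reflect only how far these libraries scatter, part of which may be technical.

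Alpha-arrestins are membrane-associated adaptors. Most carry PPxY motifs, through which they recruit ubiquitin ligases of the Nedd4 family to receptors and transporters. Txnip, the best known of them, also binds thioredoxin and restrains glucose uptake, in part by promoting internalisation of the glucose transporter Glut1. MondoA (Mlxip) and ChREBP (Mlxipl) are transcription factors that respond to glucose 6-phosphate, pair with Mlx and bind carbohydrate response elements (ChoREs), which are built from E-box-like boxes spaced by 5 bases. Txnip and Arrdc4 are their best known shared target genes in cultured cells.

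The promoters of Txnip and Arrdc4 are shown because these genes had the low levels described below and because the sequence a Mondo factor would read lies there. RefSeq promoter windows (GRCm38.p6, 250 bases before to 50 after the transcription start) were matched by symbol for 7 of 7 members, as 10 windows in all. Both sequences are written 5′ to 3′ along the strand of the gene. In the Txnip window (chr3:96557707-96558006, plus strand) capitals mark a tandem ChoRE-type pair, and in the Arrdc4 window (chr7:68749189-68749488, minus strand) they mark an E-box.
Txnip: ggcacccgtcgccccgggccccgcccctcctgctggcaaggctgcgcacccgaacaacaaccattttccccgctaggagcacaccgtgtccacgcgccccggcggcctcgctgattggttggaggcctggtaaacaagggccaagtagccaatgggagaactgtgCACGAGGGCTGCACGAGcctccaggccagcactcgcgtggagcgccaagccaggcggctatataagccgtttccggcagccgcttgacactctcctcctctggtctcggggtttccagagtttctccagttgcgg
Arrdc4: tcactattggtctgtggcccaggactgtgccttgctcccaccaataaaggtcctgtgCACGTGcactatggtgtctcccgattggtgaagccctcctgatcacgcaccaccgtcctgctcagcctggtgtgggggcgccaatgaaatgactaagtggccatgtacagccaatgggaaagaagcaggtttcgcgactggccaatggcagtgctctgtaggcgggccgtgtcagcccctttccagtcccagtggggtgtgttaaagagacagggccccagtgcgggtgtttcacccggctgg

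The Txnip pair, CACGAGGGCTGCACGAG, begins 85 bases before the start and matches the pattern CACGNG, 5 bases of any kind, CACGNG. Searched on both strands, that pattern was present in 16 of 32851 promoter windows (0.0487%), and Txnip was the only member with a match. The pattern needs these fixed letters in both boxes, in the same direction. Other forms of a ChoRE were not searched, so a window without a match may still hold one. Each of its boxes is also a match to the shorter ChoRE-type box CACGAG, which 6.47% of windows hold. A single CACGAG or more was also found in the windows of Arrdc1, with 2 matches on the opposite strand at 158 and 118 bases before the start, of Arrdc2, with 1 match 77 bases before the start, and of Mlxipl, with 1 match 196 bases before the start of one of its windows. The E-box CACGTG, present in 7.15% of windows, was found 193 bases before the start of Arrdc4, 98 bases before that of Mlxipl and 40 bases before that of Mlx. Neither pattern occurred in the windows of Arrdc3, Arrdc5 or Mlxip. The shorter motif CCAAT, present in 37.4% of windows, had 6 matches in the Arrdc4 window and 2 in the Txnip window. These matches describe letters in the windows and do not show binding.

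**Figure D1:**
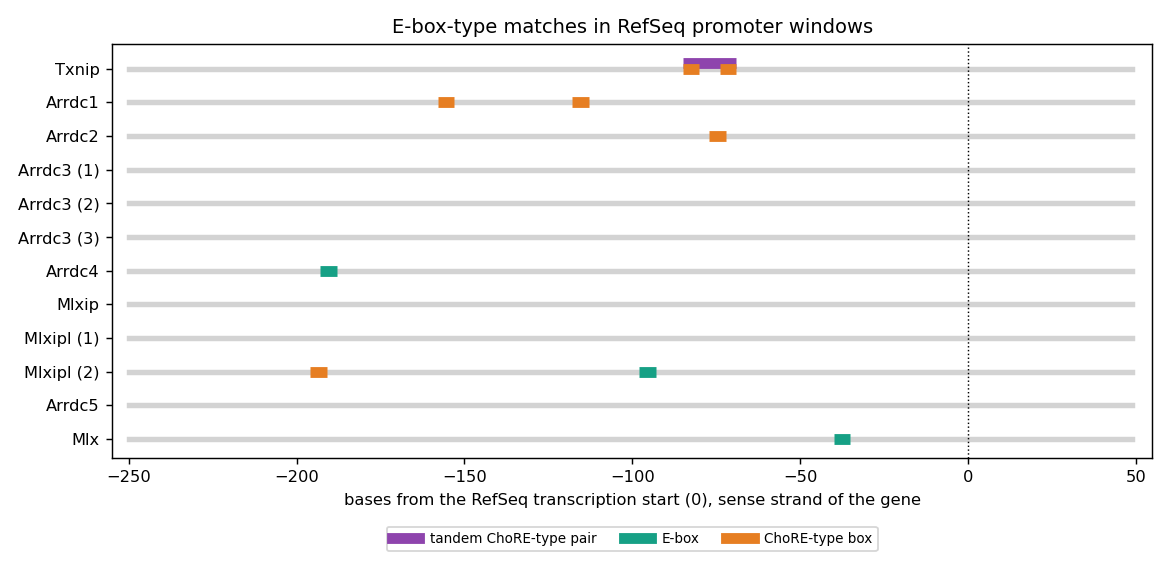
Positions of E-box-type matches, in bases from the RefSeq transcription start, in the promoter windows of the 7 members, Arrdc5 and Mlx, with 1 grey line per window. Txnip is the one gene among them with a match to the tandem pattern searched, at 85 bases before the start, and Arrdc4 has an E-box 193 bases before it.

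Levels are recovered normalized reads, obtained by inverting the variance-stabilizing transformation of the deposited log2-like values. Recovered totals ran between 28.5 and 41.5 M reads (M, units of 1e6) per library. A gene with no reads could hold up to 3 reads, or 2.65 to 3.86 normalized reads depending on the library. In a principal component analysis p53 ko replicate 1 stood apart on component 1 (44.3% of the variance) and p53ko Mdm2 C462A ki replicate 2 on component 2 (24.9%), so differences are also given without one or both. The targeted gene Mdm2 was read in every library, at 1575 and 2334 normalized reads in p53Mdm2 ko, 2033 and 2887 in p53ko Mdm2 C462A ki and between 1746 and 1994 in p53 ko, and Trp53 at 1603 and 1775, at 1339 and 1668, and between 687.1 and 1396 in the same order of groups. Such totals check no label, because the deleted part of either gene is not given. Of 12 fibroblast markers, between 10 and 12 had at least 100 normalized reads in each library. Their summed level, in units of 1000 normalized reads, was 930.8 to 1410 in p53Mdm2 ko, 1002 to 1470 in p53ko Mdm2 C462A ki and 975.1, 1699 and 2131 in p53 ko replicates 1, 2 and 3. The overlap rested on the outlying replicate 1, and the other p53 ko libraries lay above all mutant libraries. Of the 12 markers, 9 were below p53 ko in p53Mdm2 ko (median log2 difference -0.32) and 6 in p53ko Mdm2 C462A ki (-0.08). Their part in the results was not tested. Summed markers of other cell types ran from 66 to 1262 normalized reads for 6 epithelial genes, 181 to 2767 for 6 blood and macrophage genes, 169 to 2432 for 6 muscle genes, 2605 to 5400 for 5 adipocyte genes and 25 to 1241 for 4 neural genes, and for these lists the mutant groups each overlapped p53 ko. The sum of 5 endothelial genes was 751 and 1049 in p53Mdm2 ko, 344 and 557 in p53ko Mdm2 C462A ki and 43, 547 and 464 in p53 ko, so p53Mdm2 ko lay above p53 ko. Its part in the results was not tested. Plin1, a lipid droplet gene of adipocytes, was at 0 in all 7 libraries, and Myod1, the muscle determination gene, was at 0 in 6 of them. Other genes of both lists were read, and 1 or 2 of each list had at least 100 normalized reads in every library. In bulk RNA, fewer cells of a type and less RNA per cell cannot be told apart.

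Txnip, the thioredoxin-binding alpha-arrestin, was lower in every Mdm2-mutant library than in every p53 ko library. It had 109.5 and 446.8 normalized reads in p53Mdm2 ko, 127.3 and 34.4 in p53ko Mdm2 C462A ki and 3598, 1279 and 2504 in p53 ko replicates 1, 2 and 3. The lowest p53 ko library was 2.86 times as high as the highest mutant library, p53Mdm2 ko replicate 2, which itself lay well above the other 3 mutant libraries. These levels rested on between 39 and 3959 recovered reads, so the spread between replicates was far larger than counting error. The group mean was 278.1 ± 238.5 in p53Mdm2 ko, 80.85 ± 65.69 in p53ko Mdm2 C462A ki (SD, n = 2 each) and 2461 ± 1160 in p53 ko (SD, n = 3), that is 8.85-fold lower in p53Mdm2 ko and 30.4-fold lower in p53ko Mdm2 C462A ki than in p53 ko. On the deposited log2 scale the difference was -3.22 (SE 0.735) for p53Mdm2 ko minus p53 ko and -4.69 (SE 0.735) for p53ko Mdm2 C462A ki minus p53 ko. Of all 16900 genes tested, the difference for p53ko Mdm2 C462A ki was the most negative, and that for p53Mdm2 ko ranked 5 from the most negative. Txnip was chosen for low levels in these same libraries, so nothing is read from these ranks. Without p53 ko replicate 1 and p53ko Mdm2 C462A ki replicate 2 the differences were -2.88 and -3.62 in the same order.

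Arrdc4, an alpha-arrestin that shares regulation by Mondo factors with Txnip and that likewise limits glucose uptake, had the same separation. It had 51.03 and 88.84 normalized reads in p53Mdm2 ko, 80.19 and 48.51 in p53ko Mdm2 C462A ki and 559.9, 260.8 and 483.2 in p53 ko. The 4 mutant libraries lay close together, and the lowest p53 ko library, replicate 2, was 2.94 times as high as the highest of them. Replicate 2 was the lowest p53 ko library for Txnip as well. The group mean was 69.93 ± 26.73 in p53Mdm2 ko, 64.35 ± 22.4 in p53ko Mdm2 C462A ki (SD, n = 2 each) and 434.6 ± 155.3 in p53 ko (SD, n = 3), 6.21-fold and 6.75-fold lower in the mutants. The log2 difference was -2.32 (SE 0.414) for p53Mdm2 ko minus p53 ko and -2.41 (SE 0.414) for p53ko Mdm2 C462A ki minus p53 ko, and without both outlying libraries it was -2.11 and -1.92. Both comparisons use the same 3 p53 ko libraries, so their likeness is no independent observation.

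The other alpha-arrestins did not share this pattern, and the mutant and p53 ko libraries overlapped for each of Arrdc1, Arrdc2 and Arrdc3. Arrdc1, which recruits the budding machinery to the plasma membrane, had 285.8 and 276.8 normalized reads in p53Mdm2 ko, 315.7 and 342.2 in p53ko Mdm2 C462A ki and 316.3, 260.8 and 241.6 in p53 ko. It was the steadiest of the family, with log2 differences of 0.05 (95% interval -0.48 to 0.58) and 0.26 (-0.27 to 0.79) for p53Mdm2 ko and p53ko Mdm2 C462A ki against p53 ko. Arrdc2, a little studied member, had 357.2 and 157.1 normalized reads in p53Mdm2 ko, 340.8 and 202 in p53ko Mdm2 C462A ki and 222.7, 155.9 and 168.3 in p53 ko. Replicate 1 was the higher library in both mutants, and the log2 differences were 0.37 (95% interval -0.61 to 1.35) and 0.50 (-0.48 to 1.48). Arrdc3, which controls trafficking of beta-adrenergic receptors and integrin beta 4, had 336.8 and 274.2 normalized reads in p53Mdm2 ko, 313.7 and 119.9 in p53ko Mdm2 C462A ki and 312.7, 244.1 and 293.4 in p53 ko. Its one low library was p53ko Mdm2 C462A ki replicate 2. The log2 difference was 0.10 (95% interval -0.84 to 1.05) for p53Mdm2 ko and -0.48 (-1.43 to 0.46) for p53ko Mdm2 C462A ki, and the second became 0.14 without replicate 2. Arrdc5, a gene the last of the family, was at or below 2 reads in every library, so no level can be given for it.

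**Figure D2:**
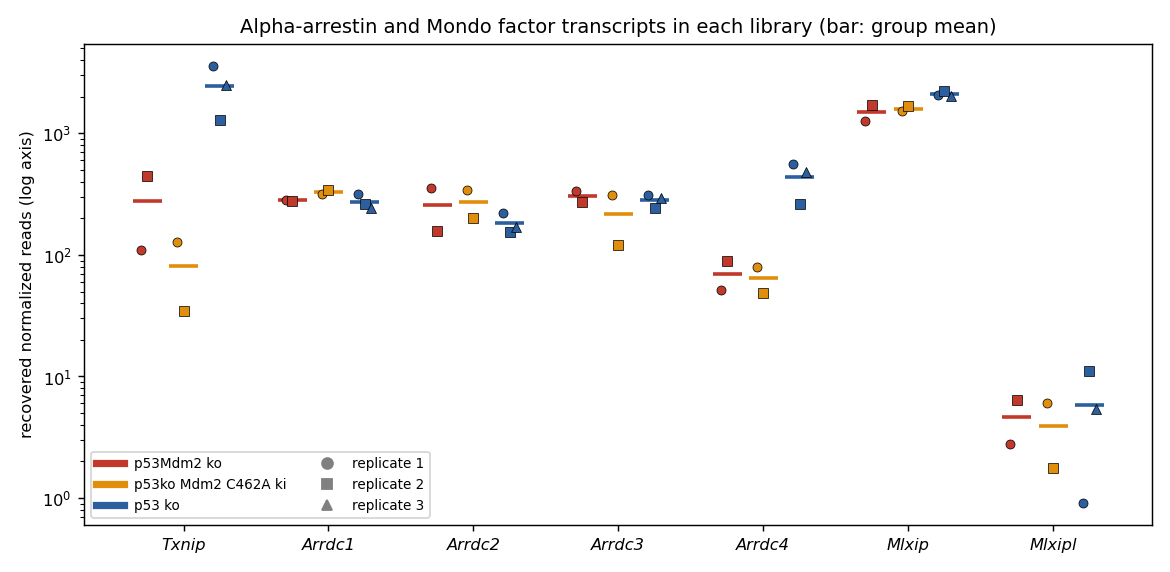
Recovered normalized reads of the 7 members (log axis) in each library, with 1 symbol per library, colours for the genotype and a bar at the group mean. Txnip, Arrdc4 and Mlxip have all 4 mutant libraries below all 3 p53 ko libraries, Arrdc1, Arrdc2 and Arrdc3 overlap, and Mlxipl lies between 0.909 and 11.14.

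Of the Mondo factors, Mlxip was well read and Mlxipl hardly at all. Mlxip, which encodes MondoA, best known from muscle, had 1272 and 1724 normalized reads in p53Mdm2 ko, 1532 and 1670 in p53ko Mdm2 C462A ki and 2090, 2253 and 2030 in p53 ko. All mutant libraries lay below all p53 ko libraries, but the gap was narrow, with the lowest p53 ko library 1.18 times as high as the highest mutant library. The group mean was 1498 ± 319.6 in p53Mdm2 ko, 1601 ± 97.57 in p53ko Mdm2 C462A ki (SD, n = 2 each) and 2124 ± 115.3 in p53 ko (SD, n = 3). The log2 difference was -0.51 (SE 0.184, limma adjusted p = 1.00) for p53Mdm2 ko and -0.40 (SE 0.184, limma adjusted p = 0.511) for p53ko Mdm2 C462A ki, so neither passed. Mlxipl, which encodes ChREBP, the form of liver and fat, had 3 and 5 recovered reads in p53Mdm2 ko, 6 and 2 in p53ko Mdm2 C462A ki and 1, 12 and 5 in p53 ko. It was under the filter of a mean of 10 normalized reads and was not tested. Differences in Mlxipl were not detectable at this depth. Mlx, the partner of both, had 978.8 and 945 normalized reads in p53Mdm2 ko, 966.3 and 1085 in p53ko Mdm2 C462A ki and 1106, 856.7 and 751.8 in p53 ko. These ranges overlapped, and the log2 differences were 0.10 (95% interval -0.41 to 0.61) and 0.19 (-0.32 to 0.70). Mlx overlaps Psmc3ip in RefSeq, and without a stated strand setting their reads cannot be told apart.

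The limma fit covered 16900 genes with a mean of at least 10 normalized reads, among them 6 of the 7 members, and used all 7 libraries in 1 fit. At a Benjamini-Hochberg adjusted p under 0.05 it called 0 genes (0%) in each comparison, members included. At an unadjusted p under 0.05, 251 genes (1.49%) were lower and 256 (1.51%) higher in p53Mdm2 ko than in p53 ko, 920 (5.44%) lower and 841 (4.98%) higher in p53ko Mdm2 C462A ki than in p53 ko, and 300 (1.78%) lower and 203 (1.2%) higher in p53ko Mdm2 C462A ki than in p53Mdm2 ko. Of the members other than Txnip and Arrdc4, Mlxip was at that level for p53Mdm2 ko and none of the others was in any comparison. The whole set was drawn up with earlier results known, so nothing is read from that level for Mlxip. Voom on recovered reads also called 0 genes in each. The count of members whose 4 mutant libraries all lay below the 3 p53 ko libraries was 3 of 6 tested, Txnip, Arrdc4 and Mlxip. Over all genes tested 4.87% did so, and because the members were chosen with such values known nothing is read from that contrast.

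**Figure D3:**
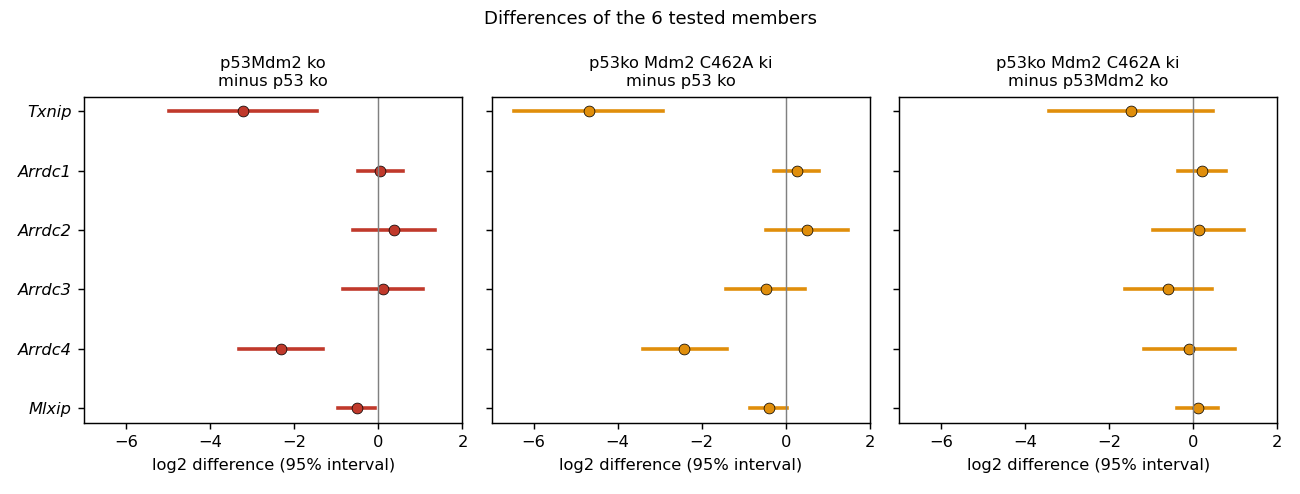
Log2 differences on the deposited scale with 95% intervals from the limma fit for the 6 tested members, in 3 comparisons. Against p53 ko the differences are -3.22 and -4.69 for Txnip and -2.32 and -2.41 for Arrdc4. Both genes were chosen by these levels, so their intervals against p53 ko are description and no test. The intervals of all 6 members include 0 between the mutants.

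The Mdm2 mutants can be set against each other directly, substitution against loss. For Txnip the mutant libraries overlapped, with 127.3 and 34.4 normalized reads in p53ko Mdm2 C462A ki and 109.5 and 446.8 in p53Mdm2 ko. The log2 difference was -1.48 (SE 0.805, limma adjusted p = 1.00; 95% interval -3.42 to 0.46), and it ranged from -2.40 without p53Mdm2 ko replicate 1 to -0.55 without p53Mdm2 ko replicate 2. For Arrdc4 it was -0.09 (95% interval -1.18 to 1.00), for Mlxip 0.11 (-0.38 to 0.59), for Arrdc2 0.13 (-0.95 to 1.21) and for Arrdc3 -0.59 (-1.62 to 0.45). Arrdc1 was the one tested member whose mutant libraries did not overlap, with both p53ko Mdm2 C462A ki libraries above both p53Mdm2 ko libraries (log2 difference 0.21, limma adjusted p = 1.00), and 15.8% of all genes tested were separated in that direction and 17.1% in the other. These intervals leave room for differences of more than 1 on the log2 scale for Txnip, Arrdc2, Arrdc3 and Arrdc4.

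Per length of the gene's exons (GENCODE vM21), the order of the 9 genes differed between genotypes, mainly through Txnip and Arrdc4. These were chosen for low levels in the mutants, so the change follows from that choice and nothing is read from it. In p53 ko Txnip was the highest of the 9 genes, at 870.4 ± 410.4 normalized reads per kb of exon (SD, n = 3), ahead of Mlx at 455.2 ± 91.56, Mlxip at 262.9 ± 14.27, Arrdc1 at 163.8 ± 23.28 and Arrdc4 at 107.6 ± 38.46. The p53 ko ranges of Txnip (452.4 to 1273) and Mlx (378.2 to 556.4) overlapped, as did those of Arrdc4 and its neighbour Arrdc2. In p53Mdm2 ko Txnip, at 98.38 ± 84.36 normalized reads per kb (SD, n = 2), came after Mlx, Mlxip, Arrdc1 and Arrdc2, and its range (38.73 to 158) overlapped those of Mlxip, Arrdc2 and Arrdc3. In p53ko Mdm2 C462A ki Txnip, at 28.6 ± 23.24 normalized reads per kb (SD, n = 2), came after Arrdc3 as well, above Arrdc4 at 15.93 ± 5.546, and its range of 12.17 to 45.03 overlapped both. Mlxip, at 198.1 ± 12.08, and Arrdc1, at 197.5 ± 11.23, could not be ordered there. In p53Mdm2 ko the ranges of Mlxip (157.4 to 213.4) and Arrdc1 (166.2 to 171.5) overlapped as well.

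Profiles most like that of Txnip were ranked by the root-mean-square distance between log2 values, each gene centred on its own mean over the 7 libraries, among 12858 other genes with a mean of at least 100 normalized reads. Arrdc4 ranked 3, at a distance of 1.04. The nearest was Wisp2, a secreted CCN family gene, at 0.80, followed by the calcium channel gene Cacna1h at 1.01. Rspo2, which encodes a Wnt-potentiating ligand (1.11), the musculoskeletal gene Mustn1 (1.13), the natriuretic peptide clearance receptor gene Npr3 (1.15), the sulfotransferase gene Chst7 (1.17) and the intermediate filament gene Synm (1.18) came next. Wisp2 had 1118 to 1286 normalized reads in p53Mdm2 ko, 326.3 to 601.4 in p53ko Mdm2 C462A ki and 2932 to 13970 in p53 ko. Because the ranking uses the same libraries in which Txnip is low in the mutants, nothing is read from the separation of these genes. All 8 were highest in p53 ko replicate 1, the library that stands apart, as was Txnip. The part of that library in the likeness was not tested. Mlxip ranked 1641, Arrdc3 2105, Mlx 8318, Arrdc1 8641 and Arrdc2 10885 in the same order. The distance was not scaled, so a rank depends on the size of a gene's changes as well as on their pattern. Mlxip changed little, although its mutant libraries all lay below p53 ko as those of Txnip did. Txnip and Arrdc4 were both chosen for low levels in the mutant libraries, so the rank of Arrdc4 follows in part from that choice.

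**Figure D4:**
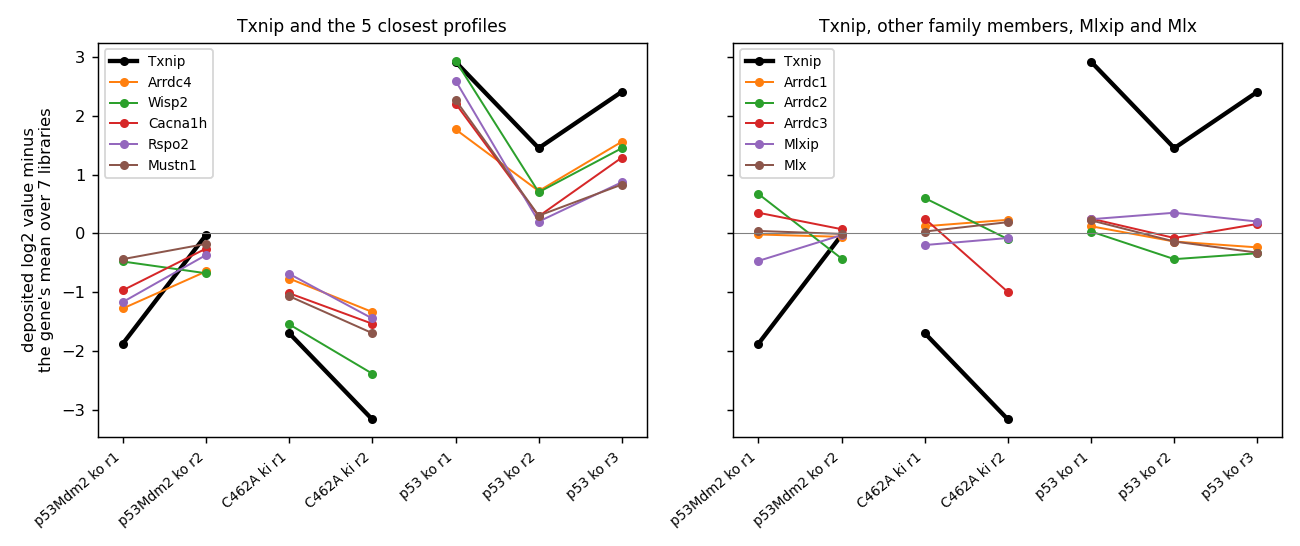
Deposited log2 value minus the gene's own mean over the 7 libraries, with lines joining libraries of 1 genotype. On the left Txnip spans from -3.17 in p53ko Mdm2 C462A ki replicate 2 to 2.92 in p53 ko replicate 1, and Arrdc4 and 4 other genes run beside it over a smaller range. On the right the other family members, Mlxip and Mlx stay within 1.00 of their means.

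The nearest tested genes on either side of Txnip and Arrdc4 were looked at in the same way. Of the 3 nearest tested genes on each side of Txnip on chromosome 3 (Sv2a, Bola1, Rnu1b2, Polr3gl, Ankrd34a and Lix1l, in RefSeq order), 0 of 6 had all mutant libraries below all p53 ko libraries, and their log2 differences ran from -1.82 to 0.29 in p53Mdm2 ko and from -1.10 to 1.61 in p53ko Mdm2 C462A ki. Of the 6 genes nearest to Arrdc4 on chromosome 7 (Igf1r, Pgpep1l, Fam169b, Nr2f2, Mctp2 and Rgma) it was also 0, with differences from -1.0 to 0.38 and from -1.10 to 0.49. Over all genes tested the share was 4.87%, so 0 of 6 does not set either neighbourhood apart. The long noncoding gene Gm15441 overlaps Txnip in RefSeq. It has no row of its own in the table and no source used here gives the strand setting of the counting, so its reads cannot be told apart from those of Txnip.

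The remaining genes of the pathway were described by lists, each with the number of tested members, the list median and the same over all genes, whose median log2 difference was -0.01 for p53Mdm2 ko and 0.01 for p53ko Mdm2 C462A ki against p53 ko. No list had a member called. For libraries that did not overlap, the shares over all genes tested were 9.2% lower and 8.99% higher for p53Mdm2 ko, and 14.4% lower and 14.1% higher for p53ko Mdm2 C462A ki.

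The glucose transporters and hexokinases held separated genes at about the share of all genes in p53Mdm2 ko. Slc2a1, which encodes Glut1, the transporter that Txnip helps to internalise, had 8775 and 4684 normalized reads in p53Mdm2 ko, 5450 and 7878 in p53ko Mdm2 C462A ki and 2633, 4656 and 3472 in p53 ko. All mutant libraries were above all p53 ko libraries, as for 4.78% of genes tested, but p53Mdm2 ko replicate 2 and p53 ko replicate 2 were nearly level. The log2 difference was 0.87 (SE 0.364, limma adjusted p = 1.00) and 0.90 (SE 0.364, limma adjusted p = 0.471). It was the 1 gene of 13 tested glucose transporters and hexokinases (16 listed) with that separation in p53Mdm2 ko, which is 1 of 13 against 8.99% of all genes, and the list median there was 0.31. The Slc2a1 difference was 0.42 without p53Mdm2 ko replicate 1 and, without both outlying libraries, 0.67 and 0.44 in p53Mdm2 ko and p53ko Mdm2 C462A ki. In p53ko Mdm2 C462A ki the list median was 0.37, and Slc2a6 (log2 difference 2.99) and Slc2a8 (0.51), both transporters of intracellular membranes, were also above all p53 ko libraries. For Slc2a8 the nearest libraries were almost level, at 338.8 normalized reads in p53ko Mdm2 C462A ki replicate 1 and 333.6 in p53 ko replicate 1. Slc2a6 had 544.3 and 1189 normalized reads in p53ko Mdm2 C462A ki, and 8.18, 149.4 and 253.5 in p53 ko, where the outlying replicate 1 was by far the lowest. Its difference was 1.94 without that library and 1.39 without both outlying libraries, and that of Slc2a8 was 0.30 without p53 ko replicate 2. The list median ranged from 0.05 without p53 ko replicate 1 to 0.54 in p53Mdm2 ko and from 0.19 to 0.56 in p53ko Mdm2 C462A ki when 1 library was left out.

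Other reported ChREBP targets, most of them lipid and sugar metabolism genes of liver, lay on both sides of 0. Of 12 tested genes (15 listed), 3 were below and 9 above p53 ko in each mutant, with medians of 0.21 for p53Mdm2 ko and 0.38 for p53ko Mdm2 C462A ki. These medians were -0.01 without p53Mdm2 ko replicate 1 and 0.06 without p53ko Mdm2 C462A ki replicate 1. In p53Mdm2 ko, Gpd1, which encodes a glycerol phosphate dehydrogenase (-1.01), and Acacb, an acetyl-CoA carboxylase gene (-0.30), were lower without overlap, and Pfkfb3, a regulator of glycolysis, was higher (0.75). These are 2 lower and 1 higher of 12, against 9.2% and 8.99% of all genes tested. The Acacb gap was narrow, from 198.6 normalized reads in p53Mdm2 ko replicate 1 to 200.9 in p53 ko replicate 1. Gpd1 had 11.13 and 11.59 normalized reads in p53Mdm2 ko and 172.7, 15.78 and 11.86 in p53 ko, so its height in p53 ko was that of replicate 1. Without that library the difference was -0.13 for Gpd1 and 0.38 for Pfkfb3, and that of Acacb was -0.08 without p53Mdm2 ko replicate 2. In p53ko Mdm2 C462A ki, Klf10, a transcription factor gene, was lower without overlap (-0.41), and Scd1, a fatty acid desaturase gene (1.09), Khk, the fructokinase gene (0.55), and Fgf21, a secreted metabolic hormone gene, were higher. Fgf21 had 77.18 and 744.4 normalized reads in p53ko Mdm2 C462A ki and 7.271, 14.85 and 29.12 in p53 ko (log2 difference 3.05, limma adjusted p = 0.448), and most of that height was in the outlying replicate 2. Without both outlying libraries the differences in p53ko Mdm2 C462A ki were 1.31 for Fgf21, 0.34 for Khk, 1.09 for Scd1 and -0.38 for Klf10, and Scd1 was at 0.61 without p53ko Mdm2 C462A ki replicate 1.

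Genes with the same rare tandem pair in their promoter were spread on both sides of 0. RefSeq windows with the pair belonged to 15 genes, of which 10 were tested, Txnip among them, and 5 were below and 5 above p53 ko in each mutant. Fnip1, which encodes a folliculin-interacting protein, was the 1 gene higher in all mutant libraries, as were 4.78% of all genes tested. It had 3503 and 3492 normalized reads in p53Mdm2 ko, 4512 and 5694 in p53ko Mdm2 C462A ki and 2632, 2707 and 3318 in p53 ko. Its log2 difference was 0.28 and 0.82 (limma adjusted p = 1.00 and 0.437). Man2b2, a lysosomal mannosidase gene, was lower without overlap in p53Mdm2 ko (-1.08, and -0.65 without p53 ko replicate 1).

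**Figure D5:**
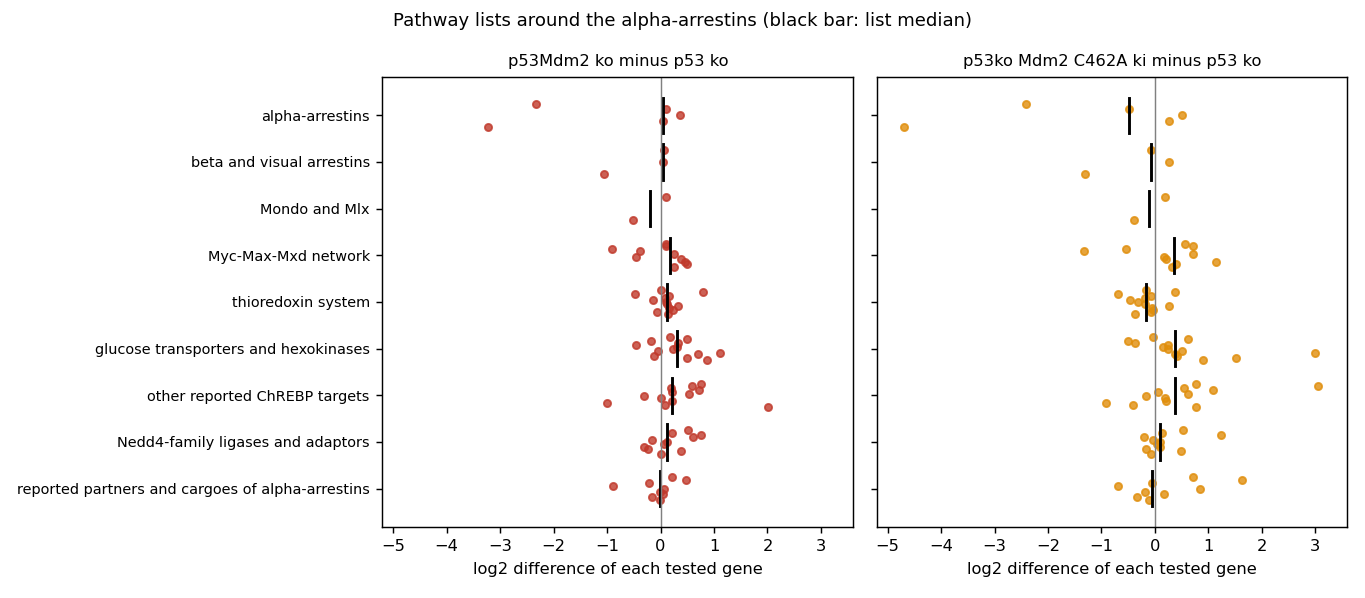
Log2 differences of every tested gene of 9 pathway lists, for p53Mdm2 ko minus p53 ko on the left and p53ko Mdm2 C462A ki minus p53 ko on the right, with a black bar at each list median. Txnip and Arrdc4 are the leftmost points of the alpha-arrestin list, and the medians of the other 8 lists lie between -0.20 and 0.38.

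Partners of the alpha-arrestins were followed in the same way. In the thioredoxin system, 10 of 13 tested genes were above p53 ko in p53Mdm2 ko (median 0.13) and 11 of 13 below it in p53ko Mdm2 C462A ki (median -0.17). Txn1, the thioredoxin that Txnip binds, had 10550 and 10120 normalized reads in p53Mdm2 ko, 9011 and 5812 in p53ko Mdm2 C462A ki and 11000, 9427 and 8002 in p53 ko. Prdx5, a peroxiredoxin gene, was the 1 gene of that list lower in all mutant libraries (log2 differences -0.47 and -0.69), as were 4.87% of all genes tested. Its p53 ko level was far higher in replicate 1 (5841) than in replicates 2 and 3 (2908 and 2802). Without replicate 1 its differences were -0.13 and -0.34. In p53ko Mdm2 C462A ki the thioredoxin-like gene Txnl1 (-0.19) and the mitochondrial peroxiredoxin gene Prdx3 (-0.19) were also lower without overlap. They were at -0.06 and -0.10 without p53 ko replicate 1. Txnl1 was nearly level between p53ko Mdm2 C462A ki replicate 1 (3822 normalized reads) and p53 ko replicate 3 (3834). Without both outlying libraries the list median was 0.24 in p53Mdm2 ko and 0.05 in p53ko Mdm2 C462A ki.

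Most alpha-arrestins recruit Nedd4-family ligases through PPxY motifs. Among 11 tested genes of these ligases and their adaptors, the median was 0.13 for p53Mdm2 ko and 0.09 for p53ko Mdm2 C462A ki. Ndfip2, a membrane-bound adaptor (0.51 and 0.52), and the ligase gene Nedd4l (0.39 and 0.48) were higher in all mutant libraries, with limma adjusted p = 1.00 and 0.493 for Ndfip2 and 1.00 and 0.514 for Nedd4l. These are 2 of 11 genes, against 4.78% of all genes tested. Nedd4l was nearly level between p53Mdm2 ko replicate 2, at 1428 normalized reads, and p53 ko replicate 2, at 1400. Ndfip2 had 1896 and 1723 normalized reads in p53Mdm2 ko, 1874 and 1765 in p53ko Mdm2 C462A ki and 963.4, 1391 and 1500 in p53 ko. Without both outlying libraries the differences were 0.32 and 0.37 for Ndfip2 and 0.33 and 0.64 for Nedd4l, and the list medians were -0.09 and -0.05. Of 9 tested partners and cargoes (10 listed), 1 was lower in all mutant libraries, as were 4.87% of genes tested. It was Vps4a, an ATPase that completes membrane budding (-0.16 and -0.34). Its p53Mdm2 ko replicate 1, at 1729 normalized reads, and p53 ko replicate 2, at 1733, were nearly level. In p53ko Mdm2 C462A ki, Pdcd6ip, which encodes the budding factor Alix, was lower (-0.19), and Ddit4, a stress-induced inhibitor of mTORC1 whose product binds Txnip (1.63), and the insulin receptor gene Insr (0.71) were higher without overlap. The medians of that list were -0.01 and -0.06. Without both outlying libraries the differences in p53ko Mdm2 C462A ki were 0.74 for Ddit4, 0.27 for Insr, -0.14 for Vps4a and -0.10 for Pdcd6ip, and that of Vps4a in p53Mdm2 ko was -0.04.

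The neighbouring families gave a few separated genes as well. Arrb1, which encodes beta-arrestin 1, the adaptor of G protein-coupled receptors, was the 1 of 3 tested beta and visual arrestin genes (4 listed; medians 0.05 and -0.07) lower in all mutant libraries, as were 4.87% of all genes tested. It had 213.4 and 458.4 normalized reads in p53Mdm2 ko, 229.5 and 296.3 in p53ko Mdm2 C462A ki and 1156, 488.2 and 544.7 in p53 ko, with log2 differences of -1.06 and -1.31 (limma adjusted p = 1.00 and 0.452). Its p53 ko replicate 1 stood well above the others, and the differences were -0.68 and -1.10 without both outlying libraries. In the network of Myc, Max and Mxd genes, whose products share E-boxes with the Mondo factors, 7 of 10 tested genes were above p53 ko in p53Mdm2 ko (median 0.18) and 8 of 10 in p53ko Mdm2 C462A ki (median 0.35). The repressor genes Mxd4 (-0.91) and Mxd1 (-0.46) were lower without overlap in p53Mdm2 ko. In p53ko Mdm2 C462A ki, 1 of the 10 was lower without overlap, Mxd3 (-1.33), and 5 were higher, against 14.4% and 14.1% of all genes tested. The largest differences among the 5 were those of Mycn (1.15), Mxi1 (0.71) and Mnt (0.71). Mxd1, lower in p53Mdm2 ko, was also among the 5 (0.17). Without both outlying libraries the differences were -0.38 for Mxd3, 0.42 for Mycn, 0.74 for Mxi1 and 0.83 for Mnt, those of Mxd4 and Mxd1 in p53Mdm2 ko were -0.76 and -0.46, and the list median was -0.07 in each mutant. Leaving out p53ko Mdm2 C462A ki replicate 2 alone gave -0.59 for Mxd3 and 0.62 for Mycn.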

How the data were processed

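TruSeq libraries from total RNA of 7 MEF samples gave 50 bp single reads, per the labels' protocols. The submitters' processing notes name mm9, DESeq 1.14.0, Bowtie2 2.1.0 and CASAVA 1.8.2. How reads were counted, with which annotation and strand setting, is not given in the sources used here. The deposited values are log2-like: they have the form of a variance-stabilizing transformation, with 3.36 for genes without reads. Inverting that form gave normalized reads, and dividing by 1 step per library gave whole reads: 100% of values above 0 and under 1000 reads lay within 0.05 of a whole number. At totals of 28.5 to 41.5 M reads, counting error still limits precision for genes of few reads. Among them are Mlxipl, Arrdc5, Gpd1 (12 and 9 recovered reads in p53Mdm2 ko) and Fgf21 (8, 16 and 27 in p53 ko).

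limma 3.58.1 (R 4.3.3) was fitted to the deposited values with group means and a mean-variance trend, and was tested on simulated data. Tests were two-sided, with Benjamini-Hochberg adjustment over 16900 genes with a mean of at least 10 normalized reads. Members and lists were chosen with earlier results of these data known. Named were all members, Arrdc5, Mlx, Mdm2, list genes called or without overlap between mutant and p53 ko libraries (at most 4 per list and comparison), and the 8 profiles nearest to Txnip. Promoters are RefSeq sequences (GRCm38.p6), and exon lengths come from GENCODE vM21; no coordinates were converted. Alternatives were another filter, pseudocounts of 1 and 10, TMM scaling, voom, no trend, sample weights, a replicate block, the compared groups alone, and leaving out libraries.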

Additional observations from a re-analysis of the deposited data

How the results depend on the processing

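The log2 differences of Txnip, Arrdc4 and Mlxip against p53 ko kept their sign under all 18 alternatives. All mutant libraries of these genes lay below all p53 ko libraries, so leaving out libraries could not turn the sign. Nothing is read from the kept signs. No member passed the adjusted threshold under any alternative. For p53Mdm2 ko against p53 ko, leaving out 1 library gave -4.14 to -2.29 for Txnip and -2.63 to -2.0 for Arrdc4; for p53ko Mdm2 C462A ki it gave -5.43 to -3.96 and -2.72 to -2.12. The count of called genes stayed at 0 in every comparison except that 1 gene, Ifi202b, an interferon-inducible gene named after its value was seen, was called for p53Mdm2 ko against p53 ko without both outlying libraries (log2 difference -6.70, limma adjusted p = 0.0315); leaving out 1 library gave 0 to 0. Signs of members other than Txnip turned in some alternatives. For p53Mdm2 ko against p53 ko, Arrdc1 was -0.03 and Mlx -0.02 with a replicate block and likewise (-0.03 and -0.02) without p53 ko replicate 3, and without p53Mdm2 ko replicate 1 Arrdc2 was -0.18 and Arrdc3 -0.04. Leaving out single libraries gave at most 0.15 for Arrdc1, 0.26 for Mlx, 0.91 for Arrdc2 and 0.24 for Arrdc3. For p53ko Mdm2 C462A ki against p53 ko, Arrdc3 (-0.48 with all libraries) was 0.14 without p53ko Mdm2 C462A ki replicate 2 and 0.21 without both outlying libraries, against -1.11 without replicate 1. Between the mutants, Arrdc4 was 0.23 without p53Mdm2 ko replicate 2, 0.19 without p53ko Mdm2 C462A ki replicate 2 and 0.19 without both outlying libraries (-0.40 to 0.23 over single libraries left out); Arrdc3 (-0.59 with all libraries) was 0.04 without p53ko Mdm2 C462A ki replicate 2 or both outlying libraries and -1.21 without replicate 1. Arrdc2 ranged from -0.41 without p53Mdm2 ko replicate 2 (-0.22 without p53ko Mdm2 C462A ki replicate 1) to 0.68, and Mlxip from -0.11 without p53Mdm2 ko replicate 1 to 0.33. Genes at an unadjusted p under 0.05 ranged over the alternatives from 345 to 1091, from 638 to 2317 and from 61 to 1519 for p53Mdm2 ko against p53 ko, p53ko Mdm2 C462A ki against p53 ko and between the mutants. The cause was not tested. The labels do not say that replicate numbers pair samples, and deviations of same-numbered libraries correlated across genes at between -0.164 and 0.203; with the replicate block Txnip was -3.14 and -4.62, and the block changed no call. With 2 or 3 libraries a group, spread between libraries limits these results. Depth does so as well for genes of few reads, such as Mlxipl, Arrdc5, Gpd1 and Fgf21.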
